A study of Mus musculus with 24 samples.

Results

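Irradiation changed expression in mouse skin and in mouse bone, and the difference between those 2 responses was measured gene by gene. All 24 of the 24 libraries entered the comparison. Skin was represented by 4 F-PRT libraries, read here as FLASH proton radiotherapy at an ultra-high dose rate, 4 S-PRT libraries, read here as proton radiotherapy at the standard dose rate, and 4 Untreated libraries. Bone was represented in the same way by 4 F-PRT, 4 S-PRT and 4 Untreated libraries. F-PRT and S-PRT were pooled as irradiated, so that each tissue had 8 irradiated libraries and 4 Untreated ones. All mice were female and 10 weeks old, the RNA was selected for polyA, and the title of the series speaks of a mouse sarcoma model. The labels give no strain, genotype, dose, field or time after irradiation, and do not say whether an irradiated mouse gave both tissues. The libraries are biological replicates per the labels.

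The bone libraries held marrow as well as mineralised tissue: genes of red cell, granulocyte, megakaryocyte and B cell precursors were abundant beside Col1a1, the main collagen of bone. The skin libraries carried keratins of the epidermis, with Krt10, a keratin of the upper epidermis, at 3106 CPM or more in every one. Ionising radiation breaks DNA and activates p53, a transcription factor that switches on genes for cell cycle arrest, cell death and repair and is held in check by Mdm2, a ligase it induces itself. Dividing marrow precursors are among the cells most sensitive to radiation, whereas most epidermal cells are already leaving the cell cycle. Bulk RNA cannot tell fewer cells of a type from less RNA per cell, and this holds for every cell type gene below.

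The effect of irradiation was the log2 ratio of irradiated to Untreated libraries of a tissue, and the difference was the skin effect minus the bone effect. Both came from 1 edgeR quasi-likelihood fit on all 24 libraries, with p-values adjusted by Benjamini-Hochberg over the 20754 genes tested and 0.05 as the threshold for a call. A positive difference means a more positive effect in skin. Levels are CPM, the counts of a gene scaled to the size of its library. For the 8 irradiated libraries the lowest, median and highest CPM are given in that order, and for the 4 Untreated libraries all values are given in replicate order. Standard errors (SE) are on the log2 scale. A gene was called shared if its effect passed in both tissues in 1 direction, opposite if it passed in both in different directions, and specific to a tissue if it passed there, did not pass in the other, and the difference passed with the larger effect in that tissue. These classes depend on thresholds, so only the test of the difference speaks to a difference.

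The p53 target promoters shown first are those of 3 genes described below, a target that rose in both tissues without a called difference (Ccng1), a target with a larger effect in bone (Cdkn1a) and a target whose effect was called only in skin (Gtse1). They are RefSeq promoter windows on GRCm38.p6, read in the direction of the gene, with capitals for a match to the p53 full site, a 20-letter motif named after its factor and searched on both strands with no spacer and 1 mismatch allowed. The Ccng1 window is chr11:40755287-40755536 on the minus strand and its match lies 195 to 176 bases before the start of the gene. The Cdkn1a window is chr17:29090729-29090978 on the plus strand, with the match 51 to 32 bases before the start. The Gtse1 window is chr15:85859696-85859964 on the plus strand, and its match runs from the base before the start to base 19 after it.
Ccng1: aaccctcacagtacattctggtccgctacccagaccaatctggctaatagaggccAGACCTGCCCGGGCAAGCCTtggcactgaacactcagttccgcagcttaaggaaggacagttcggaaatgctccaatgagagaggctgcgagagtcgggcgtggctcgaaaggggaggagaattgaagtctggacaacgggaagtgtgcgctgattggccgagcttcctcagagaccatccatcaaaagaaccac
Cdkn1a: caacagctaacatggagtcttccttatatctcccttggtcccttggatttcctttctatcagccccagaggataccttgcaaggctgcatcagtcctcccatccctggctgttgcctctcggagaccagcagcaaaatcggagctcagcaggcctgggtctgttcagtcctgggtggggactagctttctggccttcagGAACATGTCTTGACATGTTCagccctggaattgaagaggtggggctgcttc
Gtse1: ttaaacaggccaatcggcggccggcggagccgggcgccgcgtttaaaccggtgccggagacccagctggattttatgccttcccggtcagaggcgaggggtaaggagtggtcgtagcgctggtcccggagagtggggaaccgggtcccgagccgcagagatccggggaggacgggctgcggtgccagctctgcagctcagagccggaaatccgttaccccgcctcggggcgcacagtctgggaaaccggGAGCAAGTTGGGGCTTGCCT
Of 27025 genes with a promoter window, 29 (0.107%) held such a match, and 3 of the 24 p53 targets with a window did (12.5%). A match is a description of the letters and not a measured binding site.

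Of the 20754 genes tested, 722 rose and 1069 fell in irradiated skin, together 1791 (8.63%), with 4677 genes under an unadjusted p of 0.05. In irradiated bone 2772 rose and 2889 fell, together 5661 (27.3%), with 7962 under the unadjusted threshold. The difference between the effects passed for 3079 genes (14.8%), of which 1458 were more positive in skin and 1621 less positive, and 5780 had an unadjusted p under 0.05. The skin count moved with single libraries: it was 3593 without skin S-PRT 4 and 1126 without skin Untreated 2. It was 4715 without 5 libraries taken to stand apart from their groups, a set chosen after seeing the data. From bone these were replicate 1 of Untreated and replicates 2 and 3 of F-PRT. From skin they were replicate 4 of S-PRT and replicate 1 of Untreated. Without those 5, 2468 of the 20877 genes tested rose and 2247 fell in skin, and 3511 rose and 3412 fell in bone. The difference was then positive for 2235 genes and negative for 2097. The list counts given below without these libraries stand against those counts over all genes. Bone F-PRT 2 had the most Krt10 in bone (63.5 CPM) but was not flagged by Dixon's test in the closing section. Bone S-PRT 2 was flagged there, and bone F-PRT 4 and S-PRT 4 also held Krt10 (21.4 and 9.86 CPM), yet these were kept.

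Both effects passed for 719 genes, 503 of them shared (2.42% of those tested) and 216 opposite (1.04%). Of the shared genes 275 rose and 228 fell in both tissues, and for 66 of them the difference also passed, 25 with the larger effect in skin. The median size of the effect over shared genes was 0.82 in skin and 0.81 in bone on the log2 scale. Skin-specific genes numbered 484 (2.33%), 135 of them higher and 349 lower, with a median size of 0.64 in skin and 0.18 in bone. Bone-specific genes numbered 1985 (9.56%), 892 higher and 1093 lower, with a median size of 0.17 in skin and 0.87 in bone. A further 2930 genes passed in bone and 580 in skin without a difference that passed, so that these calls do not set the tissues apart. Leaving out skin S-PRT 4 gave 1221 shared, 503 opposite and 812 skin-specific genes, and leaving out skin Untreated 2 gave 142 opposite and 285 skin-specific genes. The median effect over all genes tested was 0.00 in skin and 0.02 in bone.

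**Figure D1:**
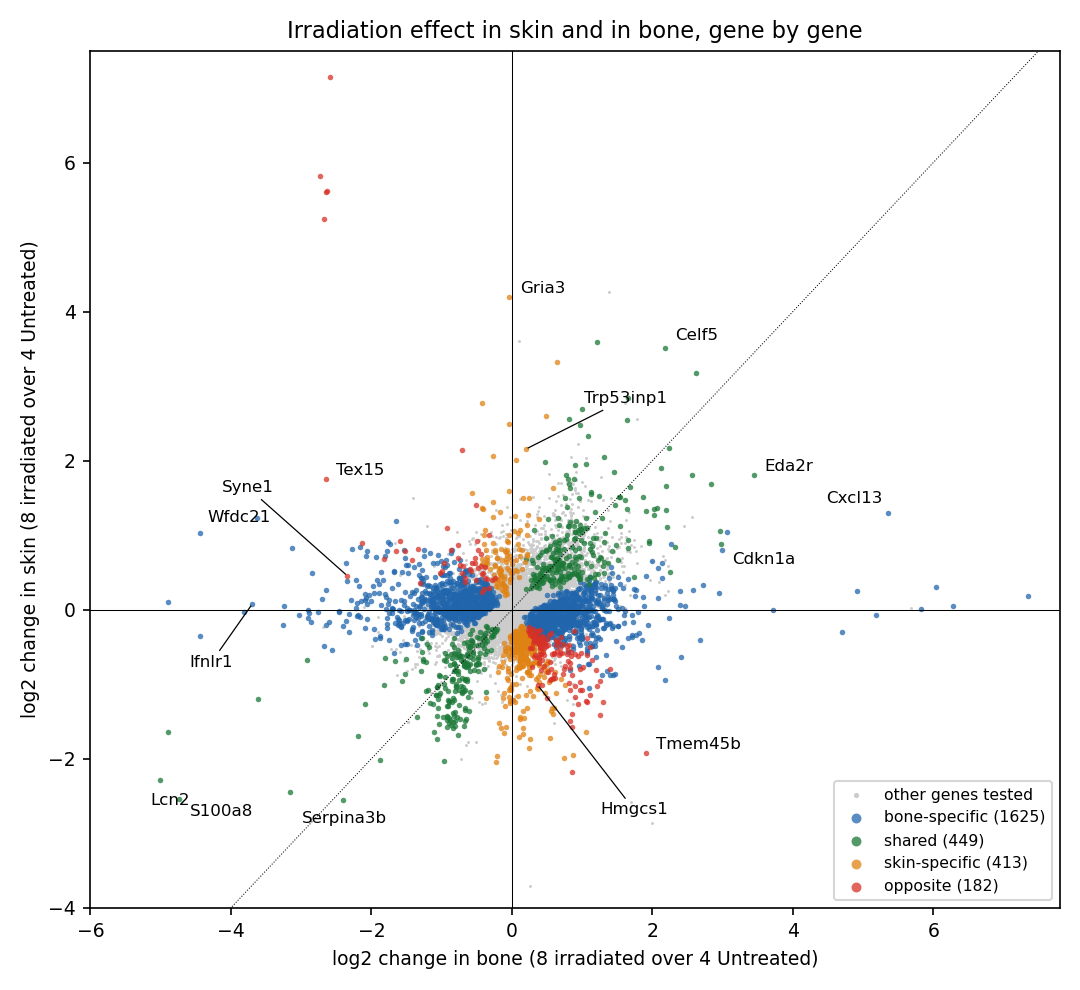
Irradiation effect in skin (y axis, log2 irradiated over Untreated) against the same effect in bone (x axis) for genes at 2 CPM or more in both tissues. Colours mark 413 skin-specific, 1625 bone-specific, 449 shared and 182 opposite genes, grey marks the rest, and the dotted line is equal change. Gria3 lies high at a bone effect near 0, Cxcl13 and Eda2r lie to the right of the line, and Wfdc21, Lcn2 and Ifnlr1 lie far to its left. The 5 unlabelled opposite points at the upper left are predicted genes outside the naming rule.

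Some libraries stood apart, and their values bear on the marker genes below. In skin S-PRT 4 the mean of the endothelial list was -0.22 log2 CPM, while its 3 fellow libraries had 3.99 to 4.23, and that of the fibroblast list was 4.66, while they had 7.40 to 7.69. Skin Untreated 1 held 8.07% of its counts in rRNA-like genes against 1.21 to 1.40% in the other Untreated skin libraries. Bone Untreated 1 was the shallowest library at 10.91 megacounts, with 10.6% of them from 7SK and 7SL. Bone F-PRT 2, F-PRT 3, F-PRT 4 and S-PRT 4 carried keratinocyte genes. Depth was 16.42 to 22.09 megacounts in irradiated skin and 16.71 to 21.2 megacounts in Untreated skin, and 13.83 to 17.36 megacounts in irradiated bone and 10.91 to 16.21 megacounts in Untreated bone. The 7SK and 7SL share ran from 3.09 to 4.30% in irradiated bone, against 5.28 to 10.6% in Untreated bone, with no overlap, and its part in the results was not tested.

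Targets of p53 rose in both tissues. Of 30 measured targets of arrest and death, 23 rose and 0 fell in skin, where 3.48% of all genes rose, and 19 rose and 2 fell in bone, where 13.4% of all genes rose. The median effect was 1.01 in skin and 0.85 in bone. The 2 that fell in bone were Xpc (log2 -0.67), a damage sensor of excision repair, and Btg2 (log2 -0.67), a brake on proliferation. As a mean over the list, irradiated skin libraries stood at 5.58 to 5.89 log2 CPM against 4.43 to 4.82 in Untreated skin, and irradiated bone libraries at 4.58 to 4.94 against 3.72 to 3.90 in Untreated bone, with no overlap in either tissue. By class 18 targets were shared, 3 skin-specific and 2 bone-specific, and the difference passed for 7 as more positive in skin (7.03% of all genes) and for 4 as less positive (7.81%).

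Ccng1, whose promoter is shown above, encodes cyclin G1, a p53 target that feeds back on Mdm2. It had 283, 326 and 591 CPM in irradiated skin, against 80.8, 139, 96.5 and 78.5 CPM in Untreated skin. In bone it had 238, 272 and 357 CPM in irradiated libraries, against 106, 85.3, 113 and 106 CPM in Untreated ones. The groups did not overlap in either tissue, which was true of 5.74% of all genes in skin and 19.6% in bone, and the highest skin value was that of S-PRT 1. The effect was log2 1.85 in skin (SE 0.19, adjusted p = 3.58e-07) and 1.45 in bone (SE 0.18, adjusted p = 2.39e-06), and the difference of 0.41 did not pass (95% interval -0.10 to 0.91, adjusted p = 0.295). Bax, which opens mitochondria in cell death, also rose in both tissues: it had 13.4, 18.3 and 24.7 CPM in irradiated skin against 11.4, 9.66, 6.11 and 7.71 in Untreated skin. In bone Bax had 23.5, 29.5 and 32.5 CPM in irradiated libraries against 14.9, 17.2, 15.4 and 15.1 in Untreated ones. Its effects of 1.12 in skin and 0.88 in bone differed by 0.24 (95% interval -0.18 to 0.66, adjusted p = 0.495).

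Several p53 targets had the larger effect in bone. Cdkn1a encodes p21, the inhibitor that stops the cell cycle. It had 314, 341 and 348 CPM in irradiated skin, against 294, 153, 138 and 139 CPM in Untreated skin, where replicate 1 stood close to the irradiated libraries. In bone the irradiated libraries had 96.3, 120.2 and 164 CPM, against 17.1, 14.8, 17.9 and 14.2 CPM in Untreated bone, so that each irradiated library was far above each Untreated one. The effect of 0.89 in skin (SE 0.16, adjusted p = 0.000864) was smaller than the effect of 2.98 in bone (SE 0.19, adjusted p = 3.07e-11), with a difference of -2.09 (95% interval -2.57 to -1.62, adjusted p = 1.01e-06). Without the 5 libraries that stood apart the effects were 1.22 in skin and 3.05 in bone, and the difference -1.83.

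Zmat3, an RNA-binding target of p53, had 235, 254 and 303 CPM in irradiated skin against 115, 87.6, 100.3 and 105 CPM in Untreated skin. In bone it had 61.0, 69.5 and 84.3 CPM in irradiated libraries against 17.3, 16.6, 12.6 and 16.3 CPM in Untreated ones. Neither tissue showed overlap, and the effects of 1.34 in skin (adjusted p = 1.09e-08) and 2.20 in bone (adjusted p = 1.55e-12) differed by -0.86 (95% interval -1.16 to -0.56, adjusted p = 0.00023). Phlda3, which restrains Akt signalling, had 115, 122 and 138 CPM in irradiated skin against 102, 88.3, 86.8 and 72.0 in Untreated skin. In bone Phlda3 had 49.4, 57.7 and 66.3 CPM in irradiated libraries against 15.4, 6.89, 12.8 and 13.7 in Untreated ones. Its effect was 0.50 in skin (adjusted p = 0.0157, but 0.0723 without skin Untreated 4) and 2.25 in bone (adjusted p = 6.51e-11), a difference of -1.74 (95% interval -2.13 to -1.36, adjusted p = 7.72e-07). Eda2r, a receptor for ectodysplasin A2, had 25.9, 33.0 and 40.3 CPM in irradiated skin against 7.22, 10.2, 14.2 and 6.71 in Untreated skin. In bone Eda2r had 14.5, 23.7 and 27.5 CPM in irradiated libraries against 3.99, 1.05, 1.85 and 1.73 in Untreated ones, with effects of 1.81 in skin and 3.45 in bone and a difference of -1.64 (95% interval -2.33 to -0.94, adjusted p = 0.0016).

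Other p53 targets had the larger effect in skin. Trp53inp1 (chr4:11156431-11174379), which takes part in stress-induced cell death and autophagy, had 269.7, 334 and 442 CPM in irradiated skin against 72.3, 64.9, 74.0 and 86.9 CPM in Untreated skin. In bone it had 164, 209.6 and 248 CPM in irradiated libraries against 131, 209, 209 and 179.6 CPM in Untreated ones. The skin groups lay apart and the bone groups overlapped. The effect was 2.16 in skin (SE 0.15, adjusted p = 1.29e-09) and 0.20 in bone (SE 0.14, adjusted p = 0.295), with a difference of 1.95 (95% interval 1.55 to 2.36, adjusted p = 3.17e-07). Gtse1, a microtubule protein of dividing cells that also binds p53, had 14.1, 15.3 and 32.7 CPM in irradiated skin, the highest of them S-PRT 4, against 9.96, 6.44, 5.26 and 5.14 CPM in Untreated skin. In bone Gtse1 had 18.6, 23.2 and 25.7 CPM in irradiated libraries against 28.2, 31.3, 31.8 and 31.2 in Untreated ones, again without overlap but with the irradiated libraries below. Its effects of 1.37 in skin (adjusted p = 0.0001) and -0.43 in bone (adjusted p = 0.096) differed by 1.8 (95% interval 1.22 to 2.37, adjusted p = 8.03e-05). The bone effect of Gtse1 passed without skin S-PRT 4 (adjusted p = 0.0107). Pidd1, a scaffold for a caspase complex, was the other skin-specific target of the list.

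**Figure D2:**
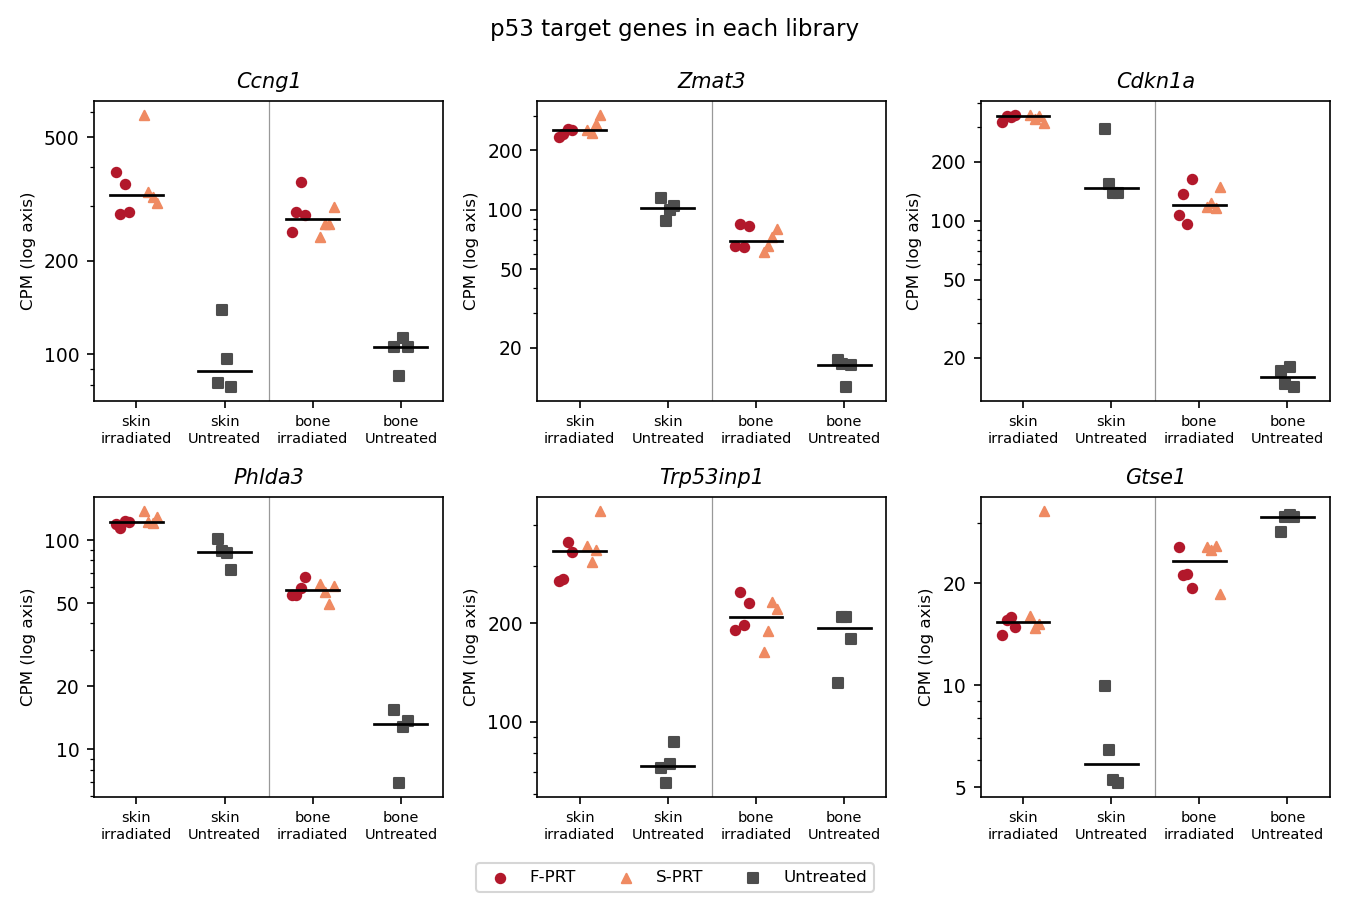
CPM (log axis) of 6 p53 targets in every library: irradiated skin, Untreated skin, irradiated bone and Untreated bone from left to right, with circles for F-PRT, triangles for S-PRT, squares for Untreated and black bars for medians. Irradiated libraries lie above Untreated ones in both tissues for Ccng1, Zmat3, Cdkn1a and Phlda3. For Trp53inp1 the bone groups overlap, and for Gtse1 irradiated bone lies below Untreated bone.

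Regulators that feed back on p53 were more positive in skin wherever the difference passed, which was in 6 of the 11 measured, with 0 the other way, with and without the 5 libraries that stood apart. Over all genes 7.03% had a positive difference, 3.48% rose in skin, and 13.4% rose and 13.9% fell in bone. In skin 4 rose (Mdm2, Psrc1, Trp53cor1 and Ptprv) and 0 fell. In bone 3 of the same genes rose (Mdm2, Psrc1 and Trp53cor1) and 4 fell, namely Ppm1d, the phosphatase that switches the damage response off, Ccng2, a relative of cyclin G1, and the ubiquitin ligases Rchy1 and Cop1. Mdm2 had 99.7, 105 and 122 CPM in irradiated skin against 58.1, 73.1, 67.9 and 66.6 CPM in Untreated skin. In bone Mdm2 had 77.3, 88.7 and 95.9 CPM in irradiated libraries against 72.7, 77.0, 77.3 and 73.7 in Untreated ones, so that the bone groups overlapped and the skin groups did not. The effects were 0.69 in skin (SE 0.08, adjusted p = 1.26e-06) and 0.21 in bone (SE 0.07, adjusted p = 0.043), and the difference was 0.48 (95% interval 0.26 to 0.70, adjusted p = 0.00259). The bone calls of Mdm2 and of Psrc1 (log2 0.32, adjusted p = 0.0452) were lost under many of the alternative settings, for example at adjusted p = 0.0621 and 0.0632 with the bone libraries fitted alone. Ccng2 had 23.1, 28.7 and 32.4 CPM in irradiated bone against 36.1, 50.5, 52.0 and 45.8 in Untreated bone (log2 -0.73), and its skin effect of -0.06 did not pass (difference 0.66, adjusted p = 0.00185).

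Outside the p53 lists, Ces2e led the shared rises by the smaller of its effects. Ces2e, a carboxylesterase, had 3.15, 4.72 and 5.77 CPM in irradiated skin against 0.569, 0.678, 0.306 and 0.439 in Untreated skin. In bone Ces2e had 4.59, 6.41 and 7.81 CPM in irradiated libraries against 0.920, 0.525, 1.41 and 1.09 in Untreated ones. Its effects of 3.17 in skin and 2.62 in bone did not differ by the test (0.55, 95% interval -0.19 to 1.29, adjusted p = 0.34). Ephx1, an epoxide hydrolase of detoxification, had 204, 221 and 294 CPM in irradiated skin against 109.7, 55.1, 64.7 and 66.0 in Untreated skin, and 85.5, 99.5 and 119 CPM in irradiated bone against 16.1, 23.2, 23.7 and 25.0 in Untreated bone. Its effects were 1.66 in skin and 2.20 in bone (difference -0.54, 95% interval -0.98 to -0.10, adjusted p = 0.0936, but 0.0458 without skin S-PRT 4 and 0.0455 without skin Untreated 2). Celf5, an RNA-binding protein of neurons, rose more in skin: it had 5.94, 8.92 and 12 CPM in irradiated skin against 0.569, 0.791, 1.04 and 0.627 in Untreated skin, and 5.97, 6.77 and 10.3 CPM in irradiated bone against 1.94, 1.72, 1.60 and 1.22 in Untreated bone. Its effects of 3.51 in skin and 2.17 in bone differed by 1.33 (95% interval 0.73 to 1.93, adjusted p = 0.00259). Cpt1c, a neuronal relative of the fatty acid carrier of mitochondria, likewise had effects of 2.85 in skin and 1.65 in bone (difference 1.19, adjusted p = 0.00288).

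The myeloid receptor genes Cd300ld3, Cd300ld4 and Cd300ld5 rose in both tissues, with effects of 1.81, 2.16 and 1.90 in skin and 2.56, 2.23 and 2.12 in bone. They are neighbouring paralogs, so reads may be divided among them with error. In skin their groups overlapped, and the sign of their differences turned with the processing.

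By the smaller of their effects, the shared falls named were S100a8, Chil1, Serpina3b, Lcn2, Sh2d5 and Slpi. Lcn2, an iron-sequestering protein of neutrophil granules and inflamed keratinocytes, had 0.941, 4.54 and 8.92 CPM in irradiated skin against 23.7, 39.6, 9.41 and 16.4 in Untreated skin. In bone Lcn2 had 17.1, 22.1 and 69.0 CPM in irradiated libraries against 236, 839, 1196 and 1327 in Untreated ones, the lowest of them Untreated 1. Its effects of -2.28 in skin and -5.0 in bone differed by 2.73 (95% interval 1.40 to 4.05, adjusted p = 0.00482). S100a8, a calcium-binding alarmin, fell by 2.54 on the log2 scale in skin and by 4.73 in bone, with a difference of 2.20 (adjusted p = 0.0213) that was lost without bone Untreated 4 (adjusted p = 0.0555), skin Untreated 1 (0.0538) or skin Untreated 3 (0.0523). Chil1, a chitinase-like protein, fell by 2.45 in skin and by 3.16 in bone (difference 0.72, adjusted p = 0.45). Serpina3b, a serine protease inhibitor, had 15.5, 114 and 199 CPM in irradiated skin against 669, 749, 640.3 and 694 in Untreated skin, and 0.592, 1.02 and 2.60 CPM in irradiated bone against 5.93, 6.67, 7.03 and 6.67 in Untreated bone. Its effects of -2.56 in skin and -2.40 in bone did not differ by the test (difference -0.15, 95% interval -1.55 to 1.24). Slpi, a protease inhibitor, and Sh2d5, an SH2 adaptor, completed the leading shared falls, at -1.69 and -2.02 in skin and at -2.19 and -1.87 in bone.

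Of 25 genes of mitosis measured, 0 rose and 8 fell in skin, where 5.15% of all genes fell, and 0 rose and 20 fell in bone, where 13.9% of all genes fell. The median effect was -0.49 in skin and -0.68 in bone, 7 genes were shared, and the difference passed for 0 of 25 (edgeR), although the checkpoint kinase Ttk was at adjusted p = 0.0702. Mki67, the proliferation antigen, had 67.9, 92.0 and 218 CPM in irradiated skin against 191, 134, 167 and 142 CPM in Untreated skin, the highest irradiated value being that of S-PRT 4. In bone Mki67 had 1026, 1421 and 1861 CPM in irradiated libraries against 2723, 2677, 2209 and 2193 in Untreated ones, without overlap. Its effects of -0.63 in skin (adjusted p = 0.102, but 0.00061 without skin S-PRT 4) and -0.74 in bone (adjusted p = 0.0189, but 0.0516 without bone Untreated 1 and 0.0613 without bone Untreated 2) differed by 0.12 (95% interval -0.58 to 0.81). Without the 5 libraries that stood apart, 13 mitosis genes fell in skin and 22 in bone. Of 25 DNA replication genes 3 fell in each tissue and the difference passed for 0, whereas with those libraries left out 11 fell in skin and 5 in bone. Of 25 double-strand break repair genes 1 fell in skin and 9 fell in bone, with the difference positive for 2 and negative for 1. Over all genes the difference was positive for 7.03% and negative for 7.81%, so these differences were near or below the shares of all genes. With the 5 libraries that stood apart left out, 8 of the repair genes fell in skin and 5 in bone. In that setting 2247 of 20877 genes tested fell in skin and 3412 in bone. The ligase gene Lig4 was 1 of the 2 repair genes with a positive difference. It had 7.62, 9.82 and 12.1 CPM in irradiated skin against 9.67, 7.91, 10.2 and 7.65 in Untreated skin. In bone Lig4 had 6.75, 7.70 and 9.39 CPM in irradiated libraries against 9.61, 13.6, 14.8 and 12.9 in Untreated ones (difference 0.90, adjusted p = 0.00251).

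Among skin-specific rises Gria3 (chrX:41400854-41678601), a subunit of AMPA glutamate receptors, had the smallest p of all differences. It had 42.9, 54.2 and 64.6 CPM in irradiated skin against 2.96, 3.33, 2.63 and 2.82 CPM in Untreated skin, an 18.3-fold change. In bone Gria3 had 20.6, 33.0 and 40.9 CPM in irradiated libraries against 30.1, 34.9, 33.7 and 34.3 in Untreated ones. Irradiated skin thus lay above the bone range while Untreated skin lay far below it. The effects were 4.20 in skin (SE 0.18, adjusted p = 1.31e-13) and -0.04 in bone (SE 0.14, adjusted p = 0.881), and the difference was 4.23 (95% interval 3.79 to 4.68, adjusted p = 6.1e-12). Set side by side, the difference was 4.22 for F-PRT and 4.24 for S-PRT, which share their Untreated libraries.

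Further skin-specific rises were named by the size of their difference. Slit1, an axon guidance cue, had 6.95, 10.6 and 34.5 CPM in irradiated skin, the highest of them S-PRT 4, against 2.45, 1.70, 1.71 and 1.75 in Untreated skin. In bone Slit1 had 1.56, 2.31 and 2.59 CPM in irradiated libraries against 2.96, 3.67, 2.49 and 2.57 in Untreated ones, and the difference was 3.20 (95% interval 2.27 to 4.13, adjusted p = 2.47e-05). Igsf9b, a synaptic adhesion protein, had 35.4, 41.1 and 81.0 CPM in irradiated skin against 4.38, 4.97, 3.55 and 5.01 in Untreated skin, and 2.13, 3.07 and 3.76 CPM in irradiated bone against 5.11, 0.674, 1.15 and 1.41 in Untreated bone. Its difference was 2.68 (adjusted p = 0.000237). The bone effect of Igsf9b (0.64, adjusted p = 0.177) passed at 1.48 (adjusted p = 0.000398) without bone Untreated 1, the library that held 5.11 CPM. Cox6b2, the testis form of a cytochrome oxidase subunit, had effects of 2.06 in skin and -0.27 in bone (difference 2.33, adjusted p = 4.12e-07). In genes under 2 CPM in bone, Anks1b, a synaptic scaffold, had 4.34, 6.78 and 8.88 CPM in irradiated skin against 0.284, 0.170, 0.0611 and 0.188 in Untreated skin (log2 5.17), and 0.710 to 1.57 CPM in irradiated bone against 0.385 to 1.12 in Untreated bone. Krt7, a keratin of simple epithelia, had 7.39, 8.37 and 17.7 CPM in irradiated skin against 0.967, 0.452, 0.489 and 0.564 in Untreated skin (log2 3.92), and its bone effect was -0.35 (difference 4.27, adjusted p = 4.08e-07). Olfr1318, an odorant receptor gene, had 1.44, 2.19 and 4.18 CPM in irradiated skin against 0 to 0.113 CPM in Untreated skin, and stayed at 0.406 CPM or below in every bone library.

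Lipid genes were among the skin-specific falls. Of 24 genes of cholesterol synthesis and uptake, 16 fell and 0 rose in skin (5.15% of all genes fell), while 4 fell and 1 rose in bone (13.9% of all genes fell), a share of falls near that of all genes. The difference passed for 13, each less positive in skin (7.81% of all genes). The median effect was -0.90 in skin and -0.05 in bone. By class 10 were skin-specific, 3 shared and 1 opposite. As a mean over the list, irradiated skin libraries stood at 5.29 to 6.02 log2 CPM against 6.42 to 6.94 in Untreated skin, without overlap, and the bone groups overlapped. Without the 5 libraries that stood apart 16 still fell in skin, 2 rose and 7 fell in bone, and the difference was negative for 12 and positive for 1.

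Hmgcs1 (chr13:119690379-119708260), an early synthase of the pathway, was the opposite gene of the list. It had 211, 245 and 279.6 CPM in irradiated skin against 588, 445, 430.3 and 502 CPM in Untreated skin. In bone Hmgcs1 had 26.4, 33.1 and 40 CPM in irradiated libraries against 22, 27.7, 27.5 and 24.4 in Untreated ones. The skin groups lay far apart and the bone groups overlapped slightly. The effects were -1.01 in skin (SE 0.10, adjusted p = 3.09e-07) and 0.37 in bone (SE 0.11, adjusted p = 0.0136, but 0.0569 without bone Untreated 1), and the difference was -1.38 (95% interval -1.70 to -1.07, adjusted p = 9.61e-07). Its RefSeq promoter window, chr13:119690101-119690350 on the plus strand of GRCm38.p6, is shown because the gene led the list. The capitals mark TCACNCCAC, a sterol response element searched on both strands, 137 to 129 bases before the start.
Hmgcs1: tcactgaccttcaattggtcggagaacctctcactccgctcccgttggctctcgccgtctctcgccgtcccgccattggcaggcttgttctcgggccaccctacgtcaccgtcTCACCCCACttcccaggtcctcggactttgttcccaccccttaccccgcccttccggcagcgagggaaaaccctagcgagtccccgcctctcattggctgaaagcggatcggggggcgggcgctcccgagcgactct
This motif stood in 388 of 27025 genes with a window (1.436%) and in 1 of the 16 genes of the list with one (6.25%).

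Lss, which closes the sterol ring, had 33.8, 43.4 and 55.4 CPM in irradiated skin against 146, 106, 93.5 and 96.0 in Untreated skin. In bone Lss had 9.81, 10.9 and 12.1 CPM in irradiated libraries against 11.4, 7.72, 8.62 and 10.1 in Untreated ones, with overlap. Its effects of -1.32 in skin and 0.21 in bone differed by -1.53 (95% interval -1.93 to -1.14, adjusted p = 4.87e-06). Nsdhl, a demethylating dehydrogenase of the same pathway, had effects of -1.15 in skin and 0.20 in bone (difference -1.35, adjusted p = 1.68e-05).

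Of 25 genes of fatty acid synthesis and sebaceous lipid, 13 fell and 0 rose in skin (5.15% of all genes fell), 1 fell and 6 rose in bone (13.4% of all genes rose), and the difference was negative for 10 (7.81% of all genes) and positive for 0. The medians were -0.81 in skin and 0.28 in bone. Scd1, the main desaturase of stearate, had 518, 2162 and 3546 CPM in irradiated skin, the lowest of them S-PRT 4, against 5856, 6011, 4586 and 5444 in Untreated skin. In bone Scd1 had 1481, 1996 and 2183 CPM in irradiated libraries against 750.2, 1002, 1231 and 1025 in Untreated ones, and neither tissue showed overlap. Its effects of -1.27 in skin and 0.94 in bone differed by -2.21 (95% interval -3.05 to -1.37, adjusted p = 0.000523). The bone call of Scd1 was lost without bone Untreated 1 (adjusted p = 0.0674) or 2 (0.053). Pparg, the master regulator of fat cells, was at 5.47, 19.7 and 22.6 CPM in irradiated skin against 33.7, 28.2, 26.7 and 27.9 in Untreated skin, and at 38.4, 52.3 and 56.2 CPM in irradiated bone against 13.7, 24, 25.8 and 24.6 in Untreated bone. Its difference was -2.0 (95% interval -2.74 to -1.25, adjusted p = 0.00042), and its skin call (-0.81, adjusted p = 0.0406) was lost under several settings, among them skin fitted alone (adjusted p = 0.139). Plin2, a coat protein of lipid droplets, fell by 1.31 in skin with a bone effect of 0.57 that did not pass (difference -1.88, adjusted p = 0.000362). Scd3, a desaturase of sebaceous glands, had 2.41, 44.3 and 87.1 CPM in irradiated skin against 302, 387, 348 and 159.6 in Untreated skin, and 1.45 CPM or less in every bone library.

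The skin-specific falls with the largest differences outside these lists were of mixed function. Cers4, a ceramide synthase, had 27.5, 100.2 and 192 CPM in irradiated skin against 436, 348, 267 and 362 in Untreated skin, and a bone effect of 0.26 (difference -2.0, adjusted p = 0.000925). Lhpp, a phosphatase, had 12.1, 15.6 and 23.5 CPM in irradiated skin against 69.5, 70.1, 50.6 and 52.0 in Untreated skin (difference -2.09, 95% interval -2.60 to -1.58, adjusted p = 2.72e-06). Ldhb, a lactate dehydrogenase subunit, Tlcd2, a membrane lipid regulator, Panx3, a channel of skin and cartilage, and Il13ra2, a decoy receptor for interleukin 13, had differences of -1.92, -2.27, -2.73 and -2.82. The bone effects of these 4 were positive and not called, and that of Panx3 passed without bone Untreated 1 (adjusted p = 0.0436). Acoxl, an acyl-CoA oxidase relative, fell by 2.0 in skin and stayed at 0.484 CPM or below in bone.

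Of 28 genes of oxidative phosphorylation encoded in the nucleus, 9 fell and 0 rose in skin (5.15% of all genes fell), 4 rose and 0 fell in bone (13.4% of all genes rose), and the difference was negative for 11 (7.81% of all genes) and positive for 0. With the 5 libraries that stood apart left out, 11 fell in skin, 1 rose in bone and the difference was negative for 9. The median effect was -0.32 in skin and 0.20 in bone, 0 of 28 effects were positive in skin and 26 of 28 were positive in bone. Atp5j, a subunit of ATP synthase, had 18.5, 21.6 and 24.5 CPM in irradiated skin against 31.3, 29.3, 27.8 and 30 in Untreated skin, and 14.6, 16.5 and 20.1 CPM in irradiated bone against 13.7, 14.1, 14.9 and 16 in Untreated bone. Its effects of -0.45 in skin and 0.16 in bone differed by -0.60 (95% interval -0.87 to -0.34, adjusted p = 0.00201). Cyc1, cytochrome c1, had effects of -0.54 in skin and 0.32 in bone (difference -0.86, adjusted p = 0.00156).

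Wound and stress genes of keratinocytes fell in skin, with 13 of 25 called as lower and 0 as higher, against 6 lower and 1 higher in bone. The difference was positive for 5 and negative for 1. The median level of the list in bone was 0.132 CPM, so a fall of most members there could hardly be seen. Over all genes 5.15% fell in skin, 13.9% fell and 13.4% rose in bone, and the difference was positive for 7.03% and negative for 7.81%. The mean over the list was 2.51 to 3.85 log2 CPM in irradiated skin against 4.13 to 5.17 in Untreated skin, without overlap. The 6 that fell in bone were S100a8, S100a9, Lcn2, Slpi, Stfa1 and Il1f9. The first 3 are also on the mature neutrophil or granulocyte precursor list, and whether the others fell in keratinocytes was not tested. Differentiation and basal keratinocyte genes did not pass in skin (0 of 25 and 0 of 15). Without the 5 libraries that stood apart, 3 differentiation genes rose and 0 fell in skin, and 2 basal genes rose and 1 fell.

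Genes of blood cells and their precursors were among the bone-specific falls. Over all genes 13.9% fell in bone, 3.48% rose in skin and 7.03% had a positive difference. The megakaryocyte list had a median level of 1.56 CPM in skin. Of 16 megakaryocyte and platelet genes, 1 rose and 0 fell in skin, 14 fell and 0 rose in bone, and the difference was positive for 14. With the 5 libraries that stood apart left out, 7 rose in skin, 15 fell in bone and 6 were opposite. As a mean over the list irradiated bone stood at 3.66 to 4.03 log2 CPM against 5.92 to 6.21 in Untreated bone. Ppbp, a platelet chemokine, had 1.25, 2.14 and 2.53 CPM in irradiated skin against 1.08, 2.15, 1.71 and 1.82 in Untreated skin. In bone Ppbp had 68.7, 82.1 and 96.2 CPM in irradiated libraries against 549, 668, 663 and 662 in Untreated ones, which is 0.127-fold with every irradiated library below every Untreated one. Its effects of 0.29 in skin (adjusted p = 0.334) and -2.98 in bone (SE 0.13, adjusted p = 3.77e-14) differed by 3.27 (95% interval 2.82 to 3.71, adjusted p = 4.33e-10). Itga2b, the platelet integrin subunit, had 16.2, 17.7 and 24 CPM in irradiated bone against 125, 148, 124 and 141 in Untreated bone, and 2.94, 3.59 and 4.29 CPM in irradiated skin against 2.67, 3.56, 2.57 and 1.44 in Untreated skin (difference 3.33, adjusted p = 4.54e-10). Mpig6b, a platelet inhibitory receptor, was among the 5 smallest p-values of the difference. It had 4.16, 5.09 and 6.05 CPM in irradiated skin against 5.58, 4.35, 5.75 and 5.33 in Untreated skin, and 4.97, 5.27 and 6.96 CPM in irradiated bone against 38.5, 44.5, 39.3 and 44.9 in Untreated bone. The bone level of Mpig6b after irradiation thus lay at its skin level (difference 2.84, 95% interval 2.5 to 3.19, adjusted p = 3.97e-11). Vwf, which platelets and endothelium share, fell by 2.07 in bone with a skin effect of 0.72 that did not pass. That skin effect passed at adjusted p = 0.000331 without skin S-PRT 4, and at log2 1.11 without the 5 libraries that stood apart, which makes Vwf opposite there.

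Granulocyte genes fell in bone. Of 13 granulocyte precursor genes 13 fell in bone and 1 fell in skin (Lcn2), with the difference positive for 4. Of 14 mature neutrophil genes 13 fell in bone and 2 fell in skin (S100a8 and S100a9), with the difference positive for 8. Over all genes 13.9% fell in bone, 5.15% fell in skin and 7.03% had a positive difference. The median levels of these lists in skin were 0.0631 and 1.01 CPM, so a fall of most members there could hardly be seen. The precursor mean was 3.71 to 5.11 log2 CPM in irradiated bone against 6.22 to 8.22 in Untreated bone. Mmp8, neutrophil collagenase, had 3.80, 8.95 and 19.0 CPM in irradiated bone against 77.3, 275, 363 and 438 in Untreated bone, 0.0333-fold, and was at 0.444 CPM or below in every skin library. Untreated 1 was again the lowest Untreated bone library. Chil3, a chitinase-like protein of myeloid cells, had 21.2, 27.4 and 46.8 CPM in irradiated bone against 189, 587, 783 and 763 in Untreated bone, and was under 1 CPM in skin. Wfdc21, a secreted protease inhibitor, had 17.1, 216 and 298 CPM in irradiated skin against 94.4, 79.1, 79.8 and 124 in Untreated skin, and 1.11, 1.75 and 2.46 CPM in irradiated bone against 8.69, 37.0, 48.1 and 56.1 in Untreated bone. Its difference of 5.48 (95% interval 4.03 to 6.93, adjusted p = 7.54e-06) was the largest among the bone-specific falls named here at 2 CPM or more in both tissues. The skin effect of Wfdc21 (1.03, adjusted p = 0.178) passed without skin S-PRT 4 (adjusted p = 0.0102), the library with 17.1 CPM.

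Early B cell genes fell in 0 of 15 cases in skin and in 9 in bone, or in 1 in skin and 13 in bone with the 5 libraries that stood apart left out. Over all genes, with all libraries, 5.15% fell in skin and 13.9% in bone. The median level in skin was 0.510 CPM for this list and 0.980 CPM for the erythroid list, so falls there could hardly be seen. Rag1, a subunit of the recombinase of antigen receptor genes, had 1.05, 1.5 and 3.31 CPM in irradiated bone against 37.3, 69.6, 76.1 and 60.0 in Untreated bone (log2 -5.13, SE 0.28, adjusted p = 2.12e-12), and at most 0.512 CPM in skin. Of 19 erythroid genes 12 fell and 0 rose in bone, and 2 rose and 1 fell in skin. Hbb-bt, an adult beta globin, had 992, 1369 and 1813 CPM in irradiated bone against 3428, 4841, 4252 and 4605 in Untreated bone, and 3.88 CPM or less in skin. Of 12 stem and progenitor genes only 3 fell in bone and 2 rose, where 13.9 and 13.4% of all genes did. Their difference was positive for 2 and negative for 1 (7.03 and 7.81% of all genes), and their median bone effect was -0.10. Hlf, a member of the list, went the other way from the next 2 genes, with a difference of -0.71 without the 5 libraries that stood apart. Myb, a transcription factor of progenitors, had 35.9, 49.0 and 59.2 CPM in irradiated bone against 114, 166, 158 and 149 in Untreated bone (difference 1.56, adjusted p = 0.00184). Meis1, a homeobox factor of stem cells, had 6.57, 9.41 and 11.1 CPM in irradiated bone against 23.9, 19.8, 16.1 and 19.0 in Untreated bone, and 20.6, 25.8 and 29.3 CPM in irradiated skin against 19.7, 31.2, 27.6 and 25.1 in Untreated skin (difference 1.06, 95% interval 0.69 to 1.44, adjusted p = 0.000244).

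The differences of 2 further bone-specific falls were among the 5 of smallest p. Ifnlr1, the receptor subunit for interferon lambda, had 18.4, 20.6 and 24.6 CPM in irradiated skin against 22.1, 17.3, 19.7 and 20.2 in Untreated skin. In bone Ifnlr1 had 0.986, 1.39 and 2.07 CPM in irradiated libraries against 13.1, 20.2, 22 and 20.2 in Untreated ones, so that the tissues had similar CPM without irradiation and lay far apart with it. The difference was 3.77 (95% interval 3.32 to 4.23, adjusted p = 3.97e-11). Adpgk, an ADP-dependent glucokinase, had 27.4, 30.3 and 39.1 CPM in irradiated skin against 25.0, 40, 42.2 and 33.2 in Untreated skin, and 43.1, 45.6 and 47.3 CPM in irradiated bone against 249, 353, 334 and 383 in Untreated bone (difference 2.71, 95% interval 2.35 to 3.06, adjusted p = 2.03e-10).

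**Figure D3:**
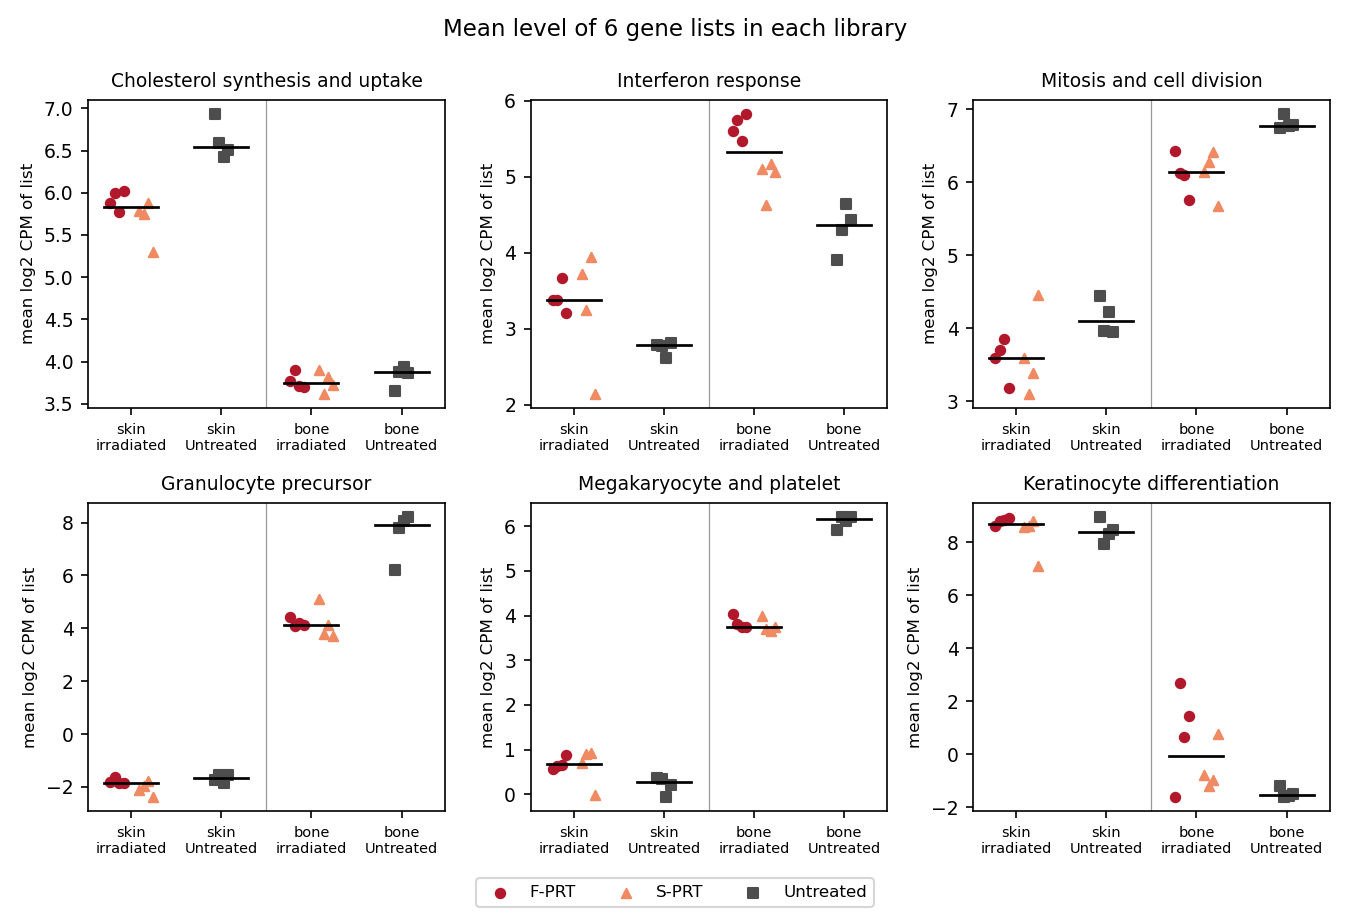
Mean log2 CPM over 6 gene lists in every library, with irradiated skin, Untreated skin, irradiated bone and Untreated bone from left to right, circles for F-PRT, triangles for S-PRT, squares for Untreated and black bars for medians. Cholesterol genes are lower in irradiated than in Untreated skin without overlap, and megakaryocyte and granulocyte precursor genes are lower in irradiated than in Untreated bone without overlap. Keratinocyte differentiation genes in irradiated bone spread from -1.61 to 2.69, against -1.62 to -1.21 in Untreated bone.

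Most marrow stroma, adipocyte and T and NK cell genes measured rose in bone. Over all genes 13.4% rose in bone, 3.48% rose in skin and 7.81% had a negative difference. Of 12 marrow stroma genes 9 rose and 0 fell in bone, where the mean was 7.22 to 7.70 log2 CPM in irradiated libraries against 6.13 to 6.85 in Untreated ones. In skin 2 rose and 0 fell, and the difference was negative for 4, while with the 5 libraries that stood apart left out 5 rose in skin and the difference was negative for 3. Il7, the lymphocyte growth factor, had 2.12, 5.90 and 7.67 CPM in irradiated skin against 7.96, 7.46, 5.56 and 5.77 in Untreated skin. In bone Il7 had 19.2, 25.2 and 32.5 CPM in irradiated libraries against 4.80, 7.5, 7.66 and 6.80 in Untreated ones, with the irradiated libraries far above. Its effects of -0.20 in skin and 1.94 in bone differed by -2.14 (95% interval -2.78 to -1.5, adjusted p = 3.67e-05). Igfbp4, a binding protein of insulin-like growth factors, had effects of -0.17 in skin and 1.34 in bone (difference -1.51, adjusted p = 0.000397), and Foxc1, a transcription factor of niche cells, -0.20 and 0.81 (difference -1.0, adjusted p = 2.45e-05).

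Of 12 adipocyte genes 0 passed in skin and 10 rose in bone (13.4% of all genes). The difference was negative for 6 (7.81% of all genes), or for 3 without the 5 libraries that stood apart. Lpl, lipoprotein lipase, had 122, 355 and 379 CPM in irradiated skin against 278, 357, 275 and 283 in Untreated skin, and 523, 617 and 747 CPM in irradiated bone against 147, 234, 225 and 233 in Untreated bone (difference -1.62, 95% interval -2.31 to -0.92, adjusted p = 0.00164). Plin1, the droplet coat of fat cells, rose by 1.44 in bone with a skin effect of 0.19 (difference -1.25, adjusted p = 0.00191). Of 20 T and NK cell genes 16 rose and 1 fell in bone, where 13.4 and 13.9% of all genes did. In skin 0 rose and 1 fell (5.15% of all genes), and the difference was negative for 11 (7.81% of all genes). Il2rb, a receptor chain for interleukins 2 and 15, had 0.647, 5.87 and 8.12 CPM in irradiated skin, the lowest of them S-PRT 4, against 12.3, 11.1, 5.93 and 10.8 in Untreated skin. In bone Il2rb had 33.8, 62.4 and 75.2 CPM in irradiated libraries against 11.2, 22, 29.1 and 25.1 in Untreated ones, and the difference was -2.33 (95% interval -3.31 to -1.35, adjusted p = 0.0014). H2-Aa, an MHC class II chain of antigen-presenting cells, had 32.5, 231 and 275 CPM in irradiated skin against 372, 325, 111 and 287 in Untreated skin, and 363, 672 and 844 CPM in irradiated bone against 89.5, 219, 267 and 222 in Untreated bone (difference -2.07, adjusted p = 0.00899).

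Of 14 osteoclast genes measured, 1 rose and 2 fell in skin, where 3.48 and 5.15% of all genes did. In bone 10 rose and 1 fell, where 13.4 and 13.9% of all genes did. The difference was negative for 4 (7.81% of all genes) and positive for 1 (7.03%). When the 5 libraries that stood apart were left out, 4 rose and 2 fell in skin and 12 rose and 1 fell in bone, and the difference was again negative for 4 and positive for 1. Tnfrsf11a, the RANK receptor that drives osteoclast formation, had 12.4, 16 and 17.9 CPM in irradiated skin against 19.5, 16.2, 14.9 and 16.7 in Untreated skin, and 30.5, 49.3 and 61.5 CPM in irradiated bone against 26.4, 19.0, 20.5 and 18.7 in Untreated bone (difference -1.32, 95% interval -1.73 to -0.90, adjusted p = 6.58e-05). Acp5, the acid phosphatase of osteoclasts, was opposite at -1.02 in skin and 0.90 in bone (difference -1.92, adjusted p = 5.85e-05). Col1a1 did not pass in either tissue (log2 0.87 in skin and 0.81 in bone), but passed in both without skin S-PRT 4 (adjusted p = 0.00798 in skin and 0.0188 in bone).

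Of 32 interferon response genes measured, 5 rose and 0 fell in skin (Rsad2, Ifit1, Ifit2, Ifit3 and Mx1), where 3.48% of all genes rose. In bone 26 rose and 1 fell, where 13.4 and 13.9% of all genes did. The difference was positive for 1 and negative for 3, which is below and near the shares of all genes (7.03 and 7.81%). The median effect was 0.66 in skin and 1.10 in bone, and 32 of 32 effects were positive in skin and 30 of 32 in bone. Leaving out the 5 libraries that stood apart, 17 rose in skin and 22 in bone. The small skin count thus rested on those libraries, but the rises over all genes in skin also went up. They were 722 of 20754 with all libraries and 2468 of 20877 without the 5. Isg15, a ubiquitin-like antiviral protein, passed in neither tissue (log2 0.72 in skin and 0.05 in bone).

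Cxcl10, a chemokine that draws T cells, had 1.47, 2.59 and 4.06 CPM in irradiated skin against 2.28, 1.98, 2.08 and 2.26 CPM in Untreated skin. In bone Cxcl10 had 7.8, 13.9 and 17.4 CPM in irradiated libraries against 1.43, 2.10, 3.38 and 1.93 in Untreated ones. The Untreated groups of the tissues had similar CPM, and every irradiated bone library stood above both. The effects were 0.26 in skin (adjusted p = 0.591) and 2.58 in bone (SE 0.27, adjusted p = 1.2e-07), and the difference was -2.32 (95% interval -3.06 to -1.58, adjusted p = 7.39e-05). Rsad2, which encodes the antiviral enzyme viperin, went the other way: it had 1.94, 6.72 and 10.1 CPM in irradiated skin, the lowest of them S-PRT 4, against 2.39, 3.11, 2.69 and 4.14 in Untreated skin. In bone Rsad2 had 111, 158 and 225 CPM in irradiated libraries against 349.7, 294, 333 and 269 in Untreated ones, without overlap. Its effects of 1.09 in skin (SE 0.30, adjusted p = 0.0224) and -0.93 in bone (SE 0.25, adjusted p = 0.00667) differed by 2.02 (95% interval 1.21 to 2.83, adjusted p = 0.00085). The skin call was lost without skin Untreated 1 (adjusted p = 0.0662), 2 (0.0653) or 3 (0.0748) and with the skin libraries fitted alone (0.102).

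The promoters of these 2 genes are shown because their bone effects, and their differences between tissues, have opposite signs while both windows hold the interferon response element, here GAAA, any 2 letters and GAAA again, or its reverse complement, in capitals. The Cxcl10 window is chr5:92348890-92349139 on the minus strand of GRCm38.p6, with the element 213 to 204 bases before the start. The Rsad2 window is chr12:26456453-26456702 on the minus strand, with the element on the reverse strand 120 to 111 bases before the start.
Cxcl10: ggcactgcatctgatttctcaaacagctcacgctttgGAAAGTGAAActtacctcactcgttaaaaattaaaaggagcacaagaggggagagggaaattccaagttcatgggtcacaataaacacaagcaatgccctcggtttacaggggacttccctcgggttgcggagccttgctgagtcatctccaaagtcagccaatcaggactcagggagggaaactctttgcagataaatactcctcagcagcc
Rsad2: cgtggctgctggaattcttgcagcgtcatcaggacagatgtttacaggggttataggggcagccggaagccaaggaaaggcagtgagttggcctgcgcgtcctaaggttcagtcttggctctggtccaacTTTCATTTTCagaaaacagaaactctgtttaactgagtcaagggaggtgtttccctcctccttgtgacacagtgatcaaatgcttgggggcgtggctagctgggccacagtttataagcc
The element stood in 1079 of 27025 genes with a window (3.993%) and in 16 of 23 interferon genes with a window (69.565%).

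Of 19 inflammatory cytokines and chemokines measured, 6 fell and 0 rose in skin, where 5.15% of all genes fell. In bone 9 rose and 3 fell, where 13.4 and 13.9% of all genes did. The difference was negative for 6 (7.81% of all genes) and positive for 0, with medians of -0.17 in skin and 0.86 in bone. With the 5 libraries that stood apart left out, 3 rose and 8 fell in skin, and the difference was again negative for 6. Ccl2, a chemokine for monocytes, had 1.12, 4.06 and 6.11 CPM in irradiated skin against 6.37, 7.18, 3.42 and 3.95 in Untreated skin, and 2.23, 3.80 and 4.76 CPM in irradiated bone against 0.511, 0.899, 0.255 and 0.578 in Untreated bone. Its difference was -3.08 (95% interval -4.14 to -2.01, adjusted p = 0.000194). Ptgs2, the inducible cyclooxygenase, had 16.2, 20.5 and 45.7 CPM in irradiated skin against 52.6, 54.9, 53.5 and 54.0 in Untreated skin, without overlap, while its bone effect of 0.86 did not pass (difference -2.02, adjusted p = 0.00319). Cxcl13 (chr5:95956951-95961068), a B cell chemokine outside the list, had 24.6, 36.2 and 58.8 CPM in irradiated bone against 0.716, 1.42, 0.830 and 0.706 in Untreated bone, a 41.0-fold rise. In skin Cxcl13 had 0.529, 1.82 and 6.09 CPM in irradiated libraries against 1.48, 0.678, 0.917 and 1.25 in Untreated ones, with overlap. Its difference was -4.06 (95% interval -5.53 to -2.60, adjusted p = 0.000302), and its skin effect of 1.29 passed without skin S-PRT 4 (adjusted p = 0.0246).

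**Figure D4:**
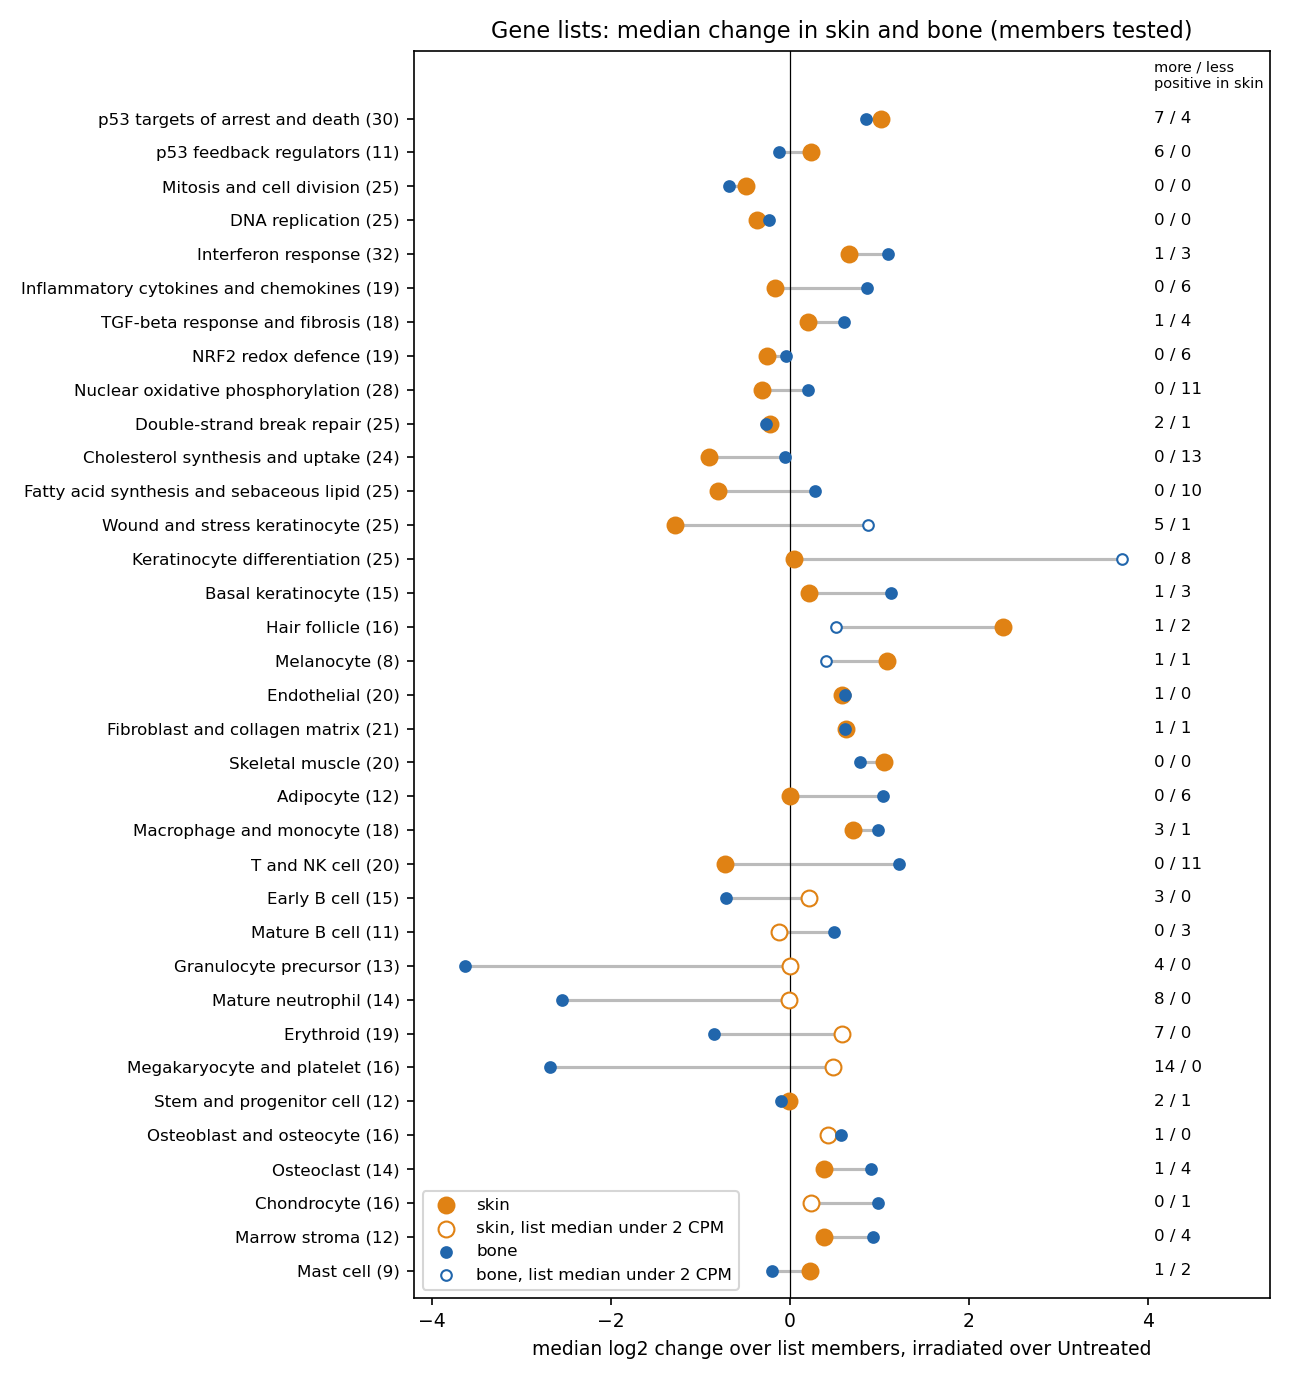
Median log2 effect of irradiation per gene list in skin (orange, large) and bone (blue, small) for 35 lists, with open markers where the list's median level was under 2 CPM in that tissue. Numbers at the right count the members whose difference passed as more positive and as less positive in skin. p53 targets lie to the right in both tissues and mitosis genes to the left in both. Cholesterol genes are negative in skin and near 0 in bone, and the granulocyte precursor, megakaryocyte, erythroid and early B cell lists are negative in bone and near or above 0 in skin.

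Of the 216 opposite genes 67 were higher in skin and lower in bone, and 149 lower in skin and higher in bone. Leaving out the 5 libraries that stood apart, there were 588, and 58.5% of them were higher in skin, against 31.0% with all libraries, so the balance of directions rested on those libraries. Inhba (chr13:16011851-16031621), the beta A chain of activin and inhibin, had 6.41, 9.28 and 12.4 CPM in irradiated skin against 5.63, 4.46, 4.77 and 5.39 CPM in Untreated skin. In bone Inhba had 4.98, 6.33 and 9.31 CPM in irradiated libraries against 22.5, 30.5, 31.3 and 34.7 in Untreated ones. Both tissues lacked overlap, in opposite directions. The effects were 0.89 in skin (SE 0.19, adjusted p = 0.00381) and -2.13 in bone (SE 0.17, adjusted p = 2.25e-09), and the difference was 3.02 (95% interval 2.47 to 3.57, adjusted p = 4.95e-08).

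Syne1 (chr10:5020917-5551482), a giant protein that links the nucleus to the cytoskeleton, had 172, 218 and 271 CPM in irradiated skin against 144, 135, 168 and 196 in Untreated skin, with some overlap. In bone Syne1 had 123, 135 and 156 CPM in irradiated libraries against 676, 757, 651 and 749 in Untreated ones. Its effects of 0.46 in skin (adjusted p = 0.012, but 0.0758 without skin Untreated 2 and 0.0641 with skin alone) and -2.34 in bone (adjusted p = 1.44e-13) differed by 2.80 (95% interval 2.46 to 3.14, adjusted p = 3.97e-11). Tex15, a germ cell gene of DNA repair and silencing, had 2.98, 4.38 and 13.7 CPM in irradiated skin, the highest of them S-PRT 4, against 1.20, 1.07, 2.20 and 2.13 in Untreated skin, and 1.83, 2.67 and 3.39 CPM in irradiated bone against 14.1, 18.4, 14.9 and 17.8 in Untreated bone (difference 4.40, 95% interval 3.47 to 5.33, adjusted p = 4.12e-07). Pde5a, a phosphodiesterase of cyclic GMP, and Lrrk2, a kinase of vesicle traffic, had effects of 0.92 and 0.81 in skin and of -1.59 and -1.34 in bone, with no overlap in either tissue. Pstpip1, a cytoskeletal adaptor of blood cells, had effects of 0.80 in skin, lost without skin Untreated 3 (adjusted p = 0.0618), and -0.87 in bone.

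Fabp5 (chr3:10012548-10016607), the epidermal fatty acid binding protein, had 49.1, 90.8 and 130.4 CPM in irradiated skin against 285, 256, 210.4 and 231 in Untreated skin. In bone Fabp5 had 13, 19.0 and 21.3 CPM in irradiated libraries against 4.29, 8.09, 7.28 and 10.1 in Untreated ones. The irradiated libraries lay wholly below in skin and wholly above in bone, and the effects of -1.41 in skin (adjusted p = 4.37e-05) and 1.26 in bone (adjusted p = 0.000257) differed by -2.67 (95% interval -3.31 to -2.02, adjusted p = 2.1e-06). Tmem45b, a transmembrane protein, had 2.12, 11.2 and 20.7 CPM in irradiated skin against 52.9, 60.1, 34.6 and 43.4 in Untreated skin, and 6.78, 10.0 and 11.1 CPM in irradiated bone against 3.68, 0.974, 2.87 and 2.63 in Untreated bone. It had the largest difference of the opposite genes named as lower in skin, at -3.83 (95% interval -4.89 to -2.77, adjusted p = 1.36e-05). Dusp4, a phosphatase of MAP kinases, Atf3, a stress transcription factor, and Themis, a T cell signalling protein, had effects of -1.23, -1.14 and -1.22 in skin and of 1.08, 1.12 and 1.06 in bone. The Atf3 calls were lost without skin Untreated 1 or 2 in skin (adjusted p = 0.0527 and 0.0649) and without bone Untreated 1 in bone (0.0574), and that of Themis was lost with the skin libraries fitted alone (0.0775).

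**Figure D5:**
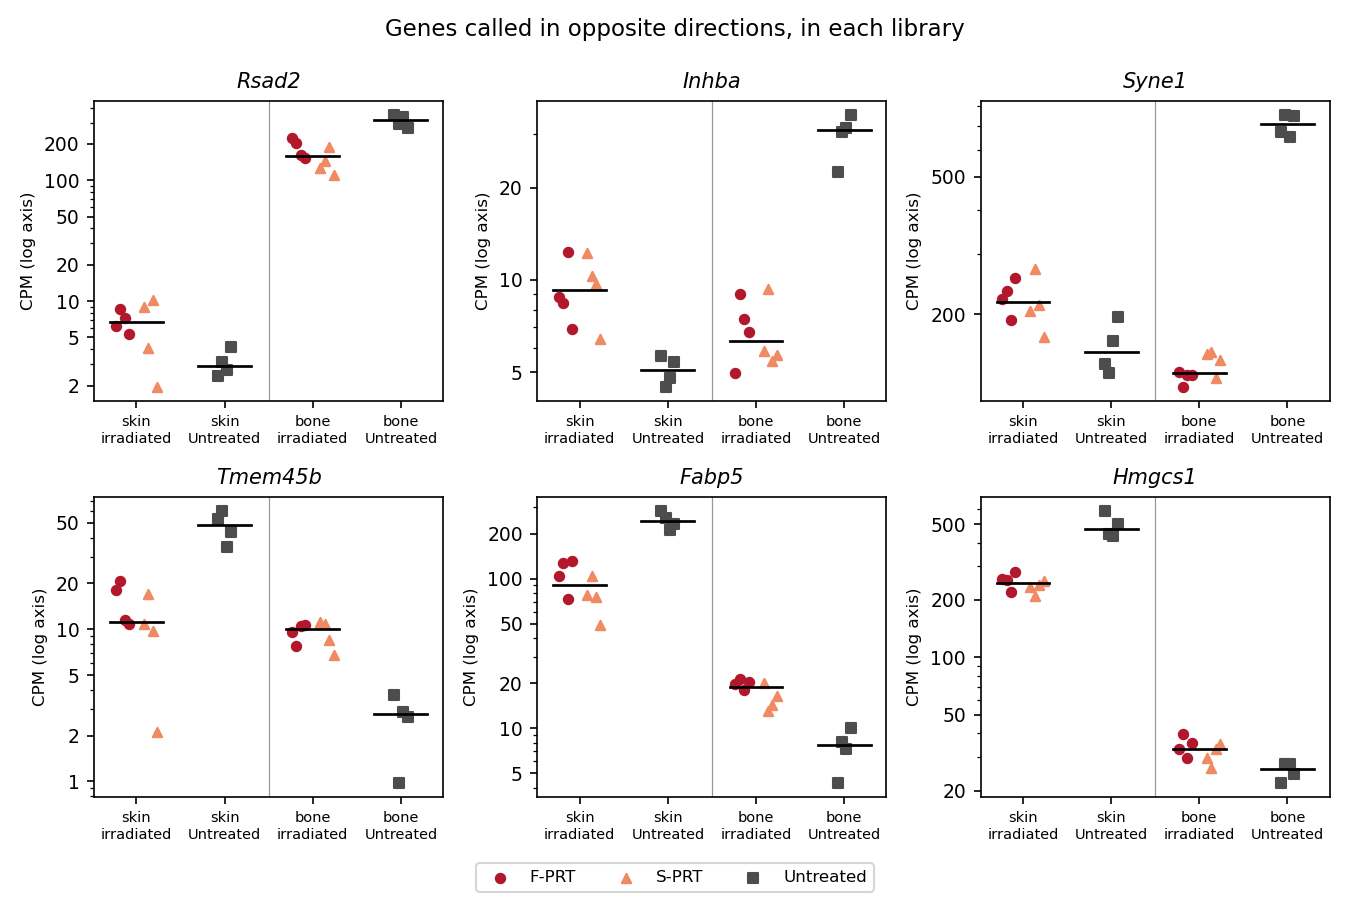
CPM (log axis) of 6 genes whose effect passed in both tissues in different directions, with irradiated skin, Untreated skin, irradiated bone and Untreated bone from left to right, circles for F-PRT, triangles for S-PRT, squares for Untreated and black bars for medians. Rsad2, Inhba and Syne1 are higher in irradiated skin and lower in irradiated bone, and Tmem45b, Fabp5 and Hmgcs1 the reverse. In skin the groups overlap for Rsad2 and Syne1, and in bone for Hmgcs1.

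Of 18 TGF-beta response genes measured, 4 rose and 2 fell in skin (3.48% of all genes rose), 11 rose and 2 fell in bone (13.4% of all genes rose), and the difference was positive for 1 and negative for 4 (7.81% of all genes). With the 5 libraries that stood apart left out, 7 rose in skin and 13 in bone, where 2468 and 3511 of 20877 genes rose. Ltbp2, a matrix protein of the LTBP family, had 56.3, 71.1 and 80.9 CPM in irradiated skin against 46.2, 48.6, 27.7 and 34.1 in Untreated skin, and 177, 222 and 243 CPM in irradiated bone against 56.1, 78.5, 62.6 and 83.9 in Untreated bone. It rose in both tissues, by 0.82 in skin and 1.65 in bone (difference -0.83, adjusted p = 0.00452). Tgfb1 itself passed in neither (log2 -0.13 in skin and -0.19 in bone). Of 19 redox defence genes driven by NRF2, 3 fell in skin (5.15% of all genes fell), 6 rose and 5 fell in bone (13.4 and 13.9% of all genes), and the difference was negative for 6 (7.81% of all genes). Leaving out the same 5 libraries, the difference was positive for 3 and negative for 4. Prdx1, a peroxiredoxin, had 287, 329 and 388 CPM in irradiated skin against 446, 460.4, 454 and 415 in Untreated skin, and 161, 230.0 and 253 CPM in irradiated bone against 100.2, 156, 149 and 161 in Untreated bone. Its difference was -1.09 (95% interval -1.44 to -0.74, adjusted p = 9.19e-05), while its skin call (-0.43, adjusted p = 0.0231) was lost without skin Untreated 2 (adjusted p = 0.0755) or 3 (0.0646).

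Keratinocyte genes in bone followed single libraries. Of 25 differentiation genes 14 rose in bone (13.4% of all genes) and 0 passed in skin, and the difference was negative for 8 (7.81% of all genes). Krt10 had 63.5, 10.8, 21.4 and 9.86 CPM in bone F-PRT 2, F-PRT 3, F-PRT 4 and S-PRT 4, at most 1.85 CPM in the other irradiated bone libraries and at most 0.375 CPM in Untreated bone. In skin Krt10 had 3106, 5056 and 6057 CPM in irradiated libraries against 8749, 3139, 3634 and 4089 in Untreated ones. Its difference (adjusted p = 0.00841) was lost with voom (0.235) and without the 5 libraries that stood apart (0.0577), where the list counted 11 rises in bone and 1 difference in each direction. The part of skin in those bone libraries was not tested.

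Endothelial and fibroblast genes depended on the libraries in skin. With all libraries 1 of 20 endothelial and 0 of 21 fibroblast genes rose in skin, where 3.48% of all genes rose. In bone 4 and 6 of them rose, where 13.4% of all genes did. With the 5 libraries that stood apart left out, 19 of 20 and 21 of 21 rose in skin, and 11 and 13 in bone. In that setting 2468 of 20877 genes tested rose in skin and 3511 in bone. Skin S-PRT 4, 1 of those 5, had the lowest mean of both lists in skin. Leaving it out therefore favours a rise, and these counts are no independent support for one. Pecam1, an adhesion protein of endothelium, had 1.65, 67.1 and 74.3 CPM in irradiated skin, the lowest of them S-PRT 4, against 57.8, 36.8, 18.8 and 22.3 in Untreated skin, the highest of them Untreated 1. Its skin effect of 0.82 (adjusted p = 0.297) was 1.38 without those libraries (adjusted p = 7.34e-06), with a difference from bone of 1.21 (adjusted p = 0.000333). The same limit holds for these values, because both S-PRT 4 and Untreated 1 were left out there. Of 18 macrophage genes 1 rose in skin, and 11 rose and 1 fell in bone. Their difference was positive for 3 and negative for 1 (7.03 and 7.81% of all genes). With those libraries left out, however, 11 rose in skin and 11 in bone. Muscle genes passed for 0 of 20 in either tissue and 0 differences.

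Each beam was also set against the same Untreated libraries. Given for F-PRT and then for S-PRT, the difference of Cdkn1a was -2.08 and -2.10, that of Trp53inp1 1.79 and 2.11, that of Hmgcs1 -1.41 and -1.36, and that of Cxcl10 -2.49 and -2.11. For Syne1 it was 2.92 and 2.69, and for Ifnlr1 3.82 and 3.72. These pairs of values share their Untreated libraries and were not tested against each other.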

How the data were processed

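Gene expression was measured by polyA RNA-seq in 24 libraries, 4 in each of 6 groups. The authors deposited RSEM expected counts per gene for each library, per the file headers, and these expected counts were rounded to whole numbers before the fit. The TPM and FPKM values beside them were not used. FastQC, cutadapt, STAR, RSEM and GRCm38 are named in the submitters' processing notes, without versions. Whether counting used strand is not given in the sources used here, so overlapping and antisense genes are uncertain.

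Genes passing filterByExpr were scaled by TMM and fitted with edgeR 4.0.16 (R 4.3.3) over 4 cells, tissue by irradiation, using the quasi-likelihood F test and Benjamini-Hochberg adjustment at 0.05. The SE is the log2 effect divided by the square root of F, and intervals are 95%. Log2 CPM used a prior count of 2. Tested on simulated data for the skin effect minus the bone effect, with 20495 genes fitted, the fit recovered 61% of 100 genes changed by 1 on the log2 scale and 95% of 100 changed by 2, with 4 false calls. The changed genes had at least 2 CPM in both tissues, the other genes had no irradiation effect, and no simulated library stood apart. Unlike these, the real libraries held many changed genes and some that stood apart, so the rates need not hold for them.

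Named genes followed a rule: up to 8 shared rises and 6 shared falls by the smaller effect, 6 opposite genes each way, 6 specific genes each way and tissue at 2 CPM or more in both tissues and 3 below that in the other tissue, the 5 smallest p-values of the difference, a panel of 14 genes, and up to 3 members per list. Predicted genes, pseudogenes and receptor segments were left out. Xpc, Btg2, Ttk and the members named only to spell out a count of a list were chosen after their values were seen. The members and lists were chosen with earlier results of these data known. The promoter search allowed 1 mismatch for p53, beyond the exact match first set. Alternatives used DESeq2 1.42.0, limma 3.58.1 (voom), other scalings, no filter, replicate blocks and left-out libraries.

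Some genes tested in the fit are not reported here.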

Additional observations from a re-analysis of the deposited data

Results flagged for a closer look

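Each of several measures was examined in each of the 6 groups of 4 libraries, which made 252 sets of 4 values. Of these sets 29 held a library whose gap to its nearest neighbour exceeded the 95% critical share of the range (Dixon's test). By chance about 1 in 20 would do so if the sets were independent. They are not, because the same libraries recur in many sets, so the number of flags is no test.

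Skin S-PRT 4 gave the most of these. Beside the other 3 S-PRT skin libraries, its markers averaged -0.223 log2 CPM for endothelium, 4.664 for fibroblasts, 2.506 for macrophages, 0.573 for mature B cells, -0.199 for mature neutrophils, 2.362 for stem and progenitor cells, 3.147 for marrow stroma and -0.767 for mast cells, each the lowest of its group. Its basal keratinocyte markers were the highest at 10.331 and its differentiation markers the lowest at 7.118. It had 1.647 CPM of Pecam1 and 25347 genes with a count.

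Among the other skin libraries, S-PRT 1 had the greatest depth, at 22.1 megacounts, and 590.6 CPM of Ccng1. Untreated 1 had 8.07% rRNA-like counts and 293.5 CPM of Cdkn1a, where the other Untreated skin libraries had 138.5 to 153.4 CPM. Untreated 2 had 1.469 CPM of Isg15, and Untreated 4 had 78.6% protein-coding counts. Hair follicle markers averaged 2.003 in F-PRT 4 and 1.83 in Untreated 3, macrophage markers 2.564 in Untreated 3, and osteoclast markers 2.041 in F-PRT 1.

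Among bone libraries the mitochondrial share was 6.39% in F-PRT 3, 5.73% in S-PRT 2 and 6.81% in Untreated 1. Bone S-PRT 4 had 4.3% of counts in 7SK and 7SL and chondrocyte markers at 5.591, F-PRT 3 had fibroblast markers at 7.437, and S-PRT 2 had macrophage markers at 6.046.

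The effect of irradiation differed between skin and bone, by the test of the difference itself, for 3079 genes, and 216 genes were called in opposite directions. Of the panel genes the difference was -2.09 for Cdkn1a, 0.48 for Mdm2, 1.95 for Trp53inp1, -0.86 for Zmat3, -1.64 for Eda2r, -1.38 for Hmgcs1 and 4.23 for Gria3 on the log2 scale.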

How the results depend on the processing

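With voom and sample quality weights more genes were called than with edgeR: 4784 against 3079 for the difference, 4184 against 1791 in skin, 8745 against 5661 in bone, and 1546 shared, 608 opposite and 853 skin-specific genes. Without the 5 libraries that stood apart, a setting chosen after seeing the data, 4715 genes passed in skin, 1601 were shared, 588 opposite and 912 skin-specific. The share of rises among skin calls was 40.3% with all libraries, 52.3% without those 5 and 51.4% with voom. With no filter on low counts there were 133 opposite and 296 skin-specific genes, and the 12 skin libraries fitted alone gave 1119 skin calls. The cause of these shifts was not tested. Bone-specific counts stayed within 1.5 times under every alternative run. DESeq2 called 3674 differences, 2316 genes in skin and 6197 in bone.

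Leaving out 1 library at a time gave 2422 to 4031 differences, 1126 to 3593 skin calls, 4122 to 6824 bone calls, 356 to 1221 shared, 142 to 503 opposite, 285 to 812 skin-specific and 1484 to 2256 bone-specific genes. The highest of each came without skin S-PRT 4. The lowest came without bone Untreated 2 for differences, bone calls and bone-specific genes, without skin Untreated 3 for shared genes, and without skin Untreated 2 for the rest.

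Whether skin and bone libraries of the same treatment and number come from 1 mouse is not given. Over 12 such pairs, correlations of deviations ran from -0.534 to 0.334 and 4 were over 0.1. Pairs of the same treatment with other numbers ran from -0.418 to 0.547, a similar range, so these correlations cannot decide the pairing. The main fit treated the libraries as unpaired. With the replicate number as a block 2972 differences, 1693 skin calls and 5594 bone calls passed, and with treatment and number as 1 animal in the block 2040 differences passed.

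Of the values of single named genes under the alternatives, 4891 kept their direction and side of the threshold, 120 were no longer past it, 9 came to pass it and 29 changed sign. The sign changes were in differences that did not pass with all libraries. With voom the difference was 0.933 for Cd300ld4, 0.369 for Cd300ld5, 0.146 for Serpina3b and -0.098 for Mki67. Without the 5 libraries it was 1.525 for Cd300ld4, 0.059 for Cd300ld5, 0.116 for Cd300ld3 and -0.116 for Mki67, and with the animal as a block it was 0.169 for Cd300ld4. Leaving out 1 library at a time it ran from -0.50 to 1.013 for Cd300ld4, -0.558 to 0.334 for Cd300ld5, -0.31 to 0.086 for Serpina3b, -0.398 to 0.159 for Sh2d5, -0.13 to 0.22 for Mki67, -0.029 to 0.182 for Tgfb1, -0.174 to 0.367 for Col1a1 and -0.237 to 1.747 for Myh2. Depth limits genes of a few counts per library, such as Anks1b at 0.0611 to 0.284 CPM in Untreated skin, whose fitted effect had an SE of 0.35.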

Other observations

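Among genes at 2 CPM or more in both tissues the largest called differences were those of 5 predicted genes, outside the naming rule and chosen after their values were seen. The difference was 9.74 for Gm10801, 8.56 for Gm10800, 8.26 for Gm10718, 8.25 for Gm10719 and 7.92 for Gm21738. Each was opposite: the effect in skin was 7.15 for Gm10801, 5.82 for Gm10800, 5.61 for Gm10718, 5.62 for Gm10719 and 5.25 for Gm21738. In bone the effect was -2.59 for Gm10801, -2.74 for Gm10800, -2.65 for Gm10718, -2.63 for Gm10719 and -2.67 for Gm21738. Whether reads are divided correctly among them was not tested.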
